A study of Homo sapiens with 16 samples.

Results

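The HOX genes lie in 4 clusters on 4 human chromosomes, and the peaks of open chromatin inside them were measured in normal and senescent lung fibroblasts. A peak belonged here when it overlapped a fixed window of the human genome build hg19: HOXA at chr7:27120000-27270000 (150 kb), HOXB at chr17:46600000-46810000 (210 kb), HOXC at chr12:54320000-54460000 (140 kb) or HOXD at chr2:176940000-177060000 (120 kb). The windows were set by position and not by any measured value. Overlapping peaks (1 bp or more) of libraries with the same read layout were joined, which gave 76 HOX regions of 153040 regions in the paired-end libraries, of which 29 were in HOXA, 30 in HOXB, 8 in HOXC and 9 in HOXD. The single-end libraries gave 29 HOX regions of 103322, and these were 13, 11, 3 and 2.

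HOX genes encode homeodomain transcription factors that give cells along the body axis their positional identity. Within a cluster the genes are used in their chromosomal order, those at the 3′ end (low numbers) in anterior tissue and those at the 5′ end (high numbers) in posterior tissue. Polycomb complexes keep unused parts of a cluster closed, and adult fibroblasts keep a HOX pattern that fits the body site they came from. The AP-1 factors of the JUN family, the forkhead factors FOXF1 and FOXF2, the NF-kB subunit p65 and the acetyltransferases p300 and CBP all bind or modify enhancers in fibroblasts.

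The cells were IMR-90 ER:Ras, an established human lung fibroblast line that carries a Ras oncoprotein fused to the oestrogen receptor. 4-hydroxytamoxifen (4-OHT, 100 nM for 6 days) activates it and leads to oncogene-induced senescence. ATAC-seq, in which a transposase cuts open DNA, was run on 16 libraries, all of cells transfected with siRNA. The 10 paired-end libraries (35 bp reads) were 2 of cells with control siRNA and no 4-OHT (Pro), 4 with control siRNA and 4-OHT (Sen), 2 with siRNA against FOXF1/2 and 4-OHT, and 2 with siRNA against JUN-family genes and 4-OHT. The 6 single-end libraries (75 bp reads) were 2 each of Sen, of 4-OHT with siRNA against p300/CBP, and of 4-OHT with siRNA against p65. The titles of the JUN libraries name cJUN and JUND and their treatment label adds JUNB. The Pro libraries bear the same senescent cell-type label as the others, and their title and the lack of 4-OHT set them apart. The labels name no separate cultures, so the spread between replicates may be technical, and the lists hold no RNA measure or marker level with which to check the cell state or the knockdowns.

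Paired-end lists held 60156 to 108298 peaks and single-end lists 17880 to 71155, so each result stands on lists of unequal length. The lists do not give read totals. The whole number of fragments piled up at each summit (the summit pileup) was recovered from the deposited fold and p-value, and is given as a multiple of the library's background coverage (times background). A peak could be listed from 4.58 to 6.31 times background in paired-end libraries and only from 14.7 to 25.7 times in single-end libraries, and the limit climbs where the surrounding DNA is itself open. Where a region was listed in no library of a group, the lowest pileup in the other group was divided by a listing limit. That limit was set at the region's highest local background among the libraries that listed it. The result is a lower bound of the fold only if local background was no higher in the libraries without a peak. The lists do not show that value, so each "at least" and each bound below carries this condition. A region counted as closed if all reference libraries listed it and the second group never did, as opened if only the second group listed it, in all its libraries, and as kept if listed throughout. The peak names show 2 naming styles, the first in Pro, siFOXF1/2 and Sen replicates 1 and 2, the second in the JUN-family knockdown and Sen replicates 3 and 4.

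All 38 HOX genes considered were found in the RefSeq gene table of GRCh38.p14, which is another build than the lists use, so it served only for names, gene order and promoter letters. Along rising coordinates the order was HOXA2 to HOXA13, HOXB1 to HOXB13, HOXC13 to HOXC4 and HOXD13 to HOXD1. Which gene a peak lies in was not determined. Promoter letters (250 bases before the start) were present for 20 of the 38 genes: 9 in HOXA, 1 in HOXB, 2 in HOXC and 8 in HOXD. HOXA5, HOXB2 to HOXB9, HOXB13, HOXC6, HOXC8 to HOXC13 and HOXD9 had none. Where a gene had several starts with promoter letters, only the start furthest upstream was used, so other starts are not described. These promoters were rich in CpG, the dinucleotide whose clusters Polycomb complexes bind, with a median of 20.5 CpGs against 10 over 27305 genes. Their median observed-to-expected CpG ratio was 0.888, against 0.554 over all genes. The promoters with the most and the fewest CpGs are shown, with each CpG in capitals, because they span this range: HOXA13, a 5′ gene needed for distal limb and urogenital development, had 40 (ratio 1.06, GC 78%), and HOXD4, an anterior gene of the hindbrain and neck, had 4 (ratio 0.287, GC 47.6%).
HOXA13: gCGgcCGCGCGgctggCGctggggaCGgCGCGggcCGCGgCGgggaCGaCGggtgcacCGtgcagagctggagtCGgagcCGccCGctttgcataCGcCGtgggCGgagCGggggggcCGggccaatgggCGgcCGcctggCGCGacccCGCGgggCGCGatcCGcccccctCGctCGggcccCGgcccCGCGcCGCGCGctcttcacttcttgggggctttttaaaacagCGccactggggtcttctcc
HOXD4: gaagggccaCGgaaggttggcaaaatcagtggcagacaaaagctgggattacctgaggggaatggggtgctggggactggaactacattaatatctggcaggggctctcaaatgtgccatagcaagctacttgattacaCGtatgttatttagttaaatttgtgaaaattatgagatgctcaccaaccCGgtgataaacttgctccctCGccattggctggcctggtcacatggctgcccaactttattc
The HOXD12 promoter, of a 5′ gene of limb patterning, held 16 CpGs (ratio 0.907), close to the HOX median ratio.
HOXD12: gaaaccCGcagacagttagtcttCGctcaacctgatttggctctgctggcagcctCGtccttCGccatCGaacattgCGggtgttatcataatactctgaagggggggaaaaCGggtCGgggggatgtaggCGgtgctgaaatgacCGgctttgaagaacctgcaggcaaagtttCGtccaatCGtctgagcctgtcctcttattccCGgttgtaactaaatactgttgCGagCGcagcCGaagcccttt

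The other promoters lay between these in CpG number. HOXA9, a gene of blood progenitors and posterior tissue, had the highest ratio, 1.34, with 20 CpGs. HOXD1 had 31 CpGs, HOXA7 and HOXD8 28 each, HOXA6 27, HOXA4 26, and HOXD10 and HOXD11 23 each. HOXD13 and HOXD3 had 21 each and HOXA10 had 19. HOXA3 and HOXA11 had 11 each, HOXA2, the most anterior gene listed in its cluster, had 8, and HOXB1, a hindbrain gene, had 7 with a ratio of 0.343. Motifs of the factors knocked down were searched on both strands. The AP-1 site TGANTCA was in 0 of 20 HOX promoters and in 6.57% of all promoters of the same length, and the NF-kB consensus was in 0 of 20 and 0.553%. The forkhead core TGTTTAC was in 2 of 20 and in 3.01% of all. Both hits are the same letters, since HOXC4 and HOXC5 share a start in the table (14 CpGs, ratio 0.888). The shared window is shown with the site in capitals, here in its reverse complement, GTAAACA, which begins 195 bases before the start.
HOXC4 and HOXC5: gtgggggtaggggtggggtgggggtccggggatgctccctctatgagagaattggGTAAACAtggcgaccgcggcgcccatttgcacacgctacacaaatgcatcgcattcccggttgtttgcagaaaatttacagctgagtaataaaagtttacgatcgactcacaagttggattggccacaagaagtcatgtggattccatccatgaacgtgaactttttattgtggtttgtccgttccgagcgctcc
A match describes letters only, and these windows were not tied to a peak.

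The 4 clusters differed in how much of their DNA was open, in every paired-end group. In Sen, 8.85% ± 2.05 (SD, n = 4) of the HOXA window and 4.47% ± 0.66 (SD, n = 4) of the HOXB window lay in peaks, against 0.363% ± 0.288 (SD, n = 4) of HOXC and 1.01% ± 0.33 (SD, n = 4) of HOXD. The HOXA values were 9.14%, 11.6%, 7.88% and 6.81% in Sen replicates 1 to 4, and the HOXD values were 1.35%, 1.22%, 0.809% and 0.651%. Each HOXA and HOXB value in Sen was above each HOXC and HOXD value. Set among stretches of equal length along the genome that held any peak, HOXA stood at the 96.7th percentile or higher in all 10 paired-end libraries and HOXB at the 78.8th or higher. HOXD stood between the 24.6th and the 33.9th percentile and HOXC between the 10.0th and the 25.4th in the libraries other than siFOXF1/2. With FOXF1/2 siRNA, HOXD stood at the 71.9th and 72.1st percentile and HOXC at the 50.2nd and 27.6th. In the single-end Sen libraries HOXA and HOXB stood near the middle on this measure. HOXA was at percentiles 57.41 and 45.02 in replicates 1 and 2, and HOXB at 52.67 and 51.72. HOXC was at 0 in both and HOXD at 0 and 16.08, so HOXA and HOXB were still the higher clusters. HOXA was at 84.09 and 52.61 in sip300/CBP and at 0 in both sip65 libraries.

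**Figure D1:**
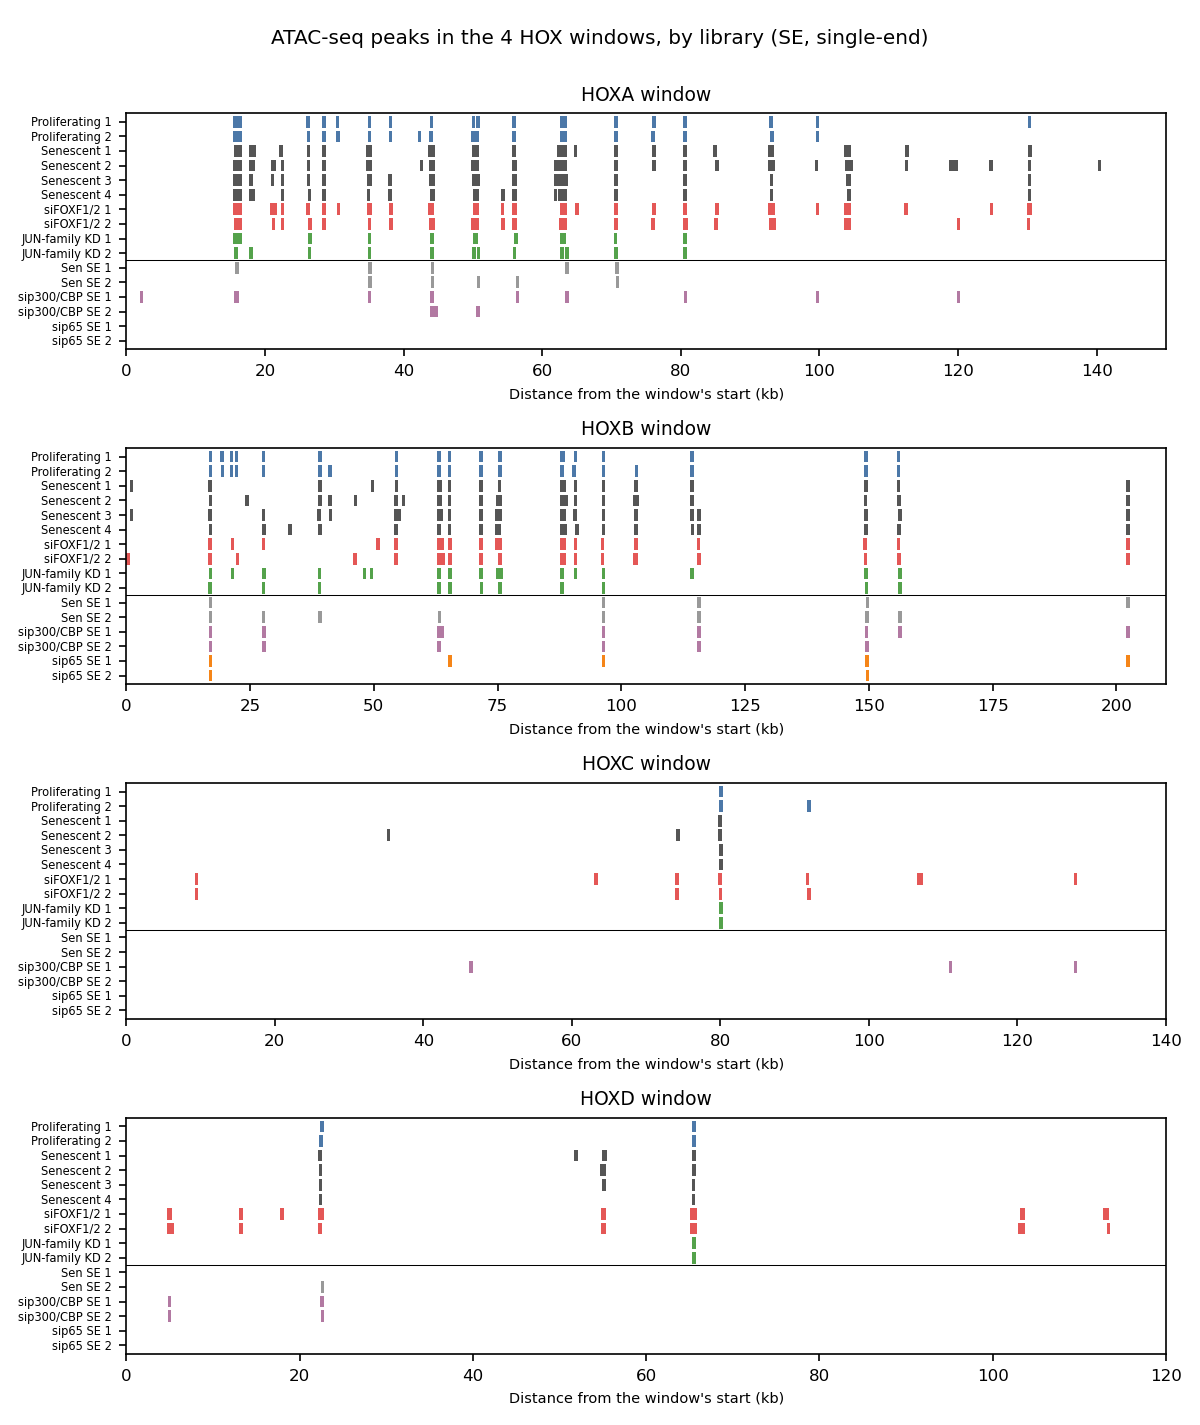
Peaks of every library along the 4 windows, with the distance from the window's start in kb on the x axis and 1 row per library, 10 paired-end above the line and 6 single-end (SE) below it. HOXA and HOXB hold rows of peaks shared by the paired-end libraries, and HOXC and HOXD hold few, with the most per paired-end library in the siFOXF1/2 rows.

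Of the 76 paired-end HOX regions, 20 (26.3%) had a peak in all 10 libraries, against 24.8% of all regions. They were 9 of 29 in HOXA, 9 of 30 in HOXB, 1 of 8 in HOXC and 1 of 9 in HOXD. In HOXA all 9 lay between 16.1 and 80.6 kb from the window's start, on the side of HOXA2, and none of the 9 regions beyond 80.6 kb, on the side of HOXA13, was in every library. In HOXB the 9 lay between 16.7 and 156 kb. HOX regions had a median width of 610 bp, against 482 bp for all regions.

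The strongest HOXA region in Sen, by its median rank within each list, was chr7:27154616-27155430, with summit pileups of 58.2, 59.6, 52.7 and 54.2 times background in Sen replicates 1 to 4. It was at 52.8 and 63.7 in Pro, 49.4 and 54 in siFOXF1/2, and 28.9 and 26.9 in the JUN-family knockdown. On this scale the JUN-family libraries were below all others and the other groups were near each other. Their median pileup at regions shared by all paired-end libraries was also lower, 21.8 and 26.4 times background against 41.3 to 52.4 in the other libraries. Divided by that median, this HOXA region was at 1.33 and 1.02 in the JUN-family libraries and at 1.27 to 1.31 in Sen. The widest HOXA region, 2019 bp at chr7:27181640-27183658, was at 76.9 and 84.4 in Pro and at 59.9, 60.0, 39.9 and 42.5 in Sen. The second HOXA region by rank was chr7:27190291-27190982, with a mean of 35.4 ± 7.3 (SD, n = 4) in Sen.

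In HOXB the leading region in Sen was chr17:46662670-46663891, at 60.3, 51.6, 52.3 and 51.4 times background. Next were chr17:46671253-46672035, with 58.6 ± 12.2 (SD, n = 4), and chr17:46695847-46696587, with 30.4 ± 4.5 (SD, n = 4). The widest HOXB region was 1548 bp at chr17:46687626-46689173. HOXC had a single region in all 10 libraries, chr12:54399661-54400218, at 34.4 and 29.3 in Pro and 24.5, 26.8, 22.6 and 22.6 in Sen. HOXD had chr2:177005025-177005888 in all 10, and chr2:176962080-176962759 in all but the JUN-family libraries. The lead regions of HOXC and HOXD were thus at 24.1 ± 2.0 and 17.4 ± 2.5 (SD, n = 4) in Sen, below those of HOXA and HOXB.

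In the paired-end libraries HOXA and HOXB peaks also stood in open surroundings. There the local background that MACS2 set against a peak had a median of 2.62 to 4.85 times the library's background over HOX peaks. Over all peaks it was 1.82 to 2.27 times. In the single-end libraries the 2 ranges were alike, 2.14 to 2.98 over HOX peaks and 2.17 to 2.72 over all peaks. In HOXA the highest paired-end local background per region had a median of 8.18 times background up to 80.6 kb and lay between 1.00 and 2.76 beyond. In HOXB it reached 14.0 times, at chr17:46671253-46672035. In HOXC and HOXD it stayed at or below 1.9 and 1.67 times. For the paired-end opened and closed regions below, the pileup needed for a listing was therefore between 5.20 times background in HOXC and HOXD and 23.2 times in HOXB. For the single-end ones it was between 27.2 and 51.3 times background.

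**Figure D2:**
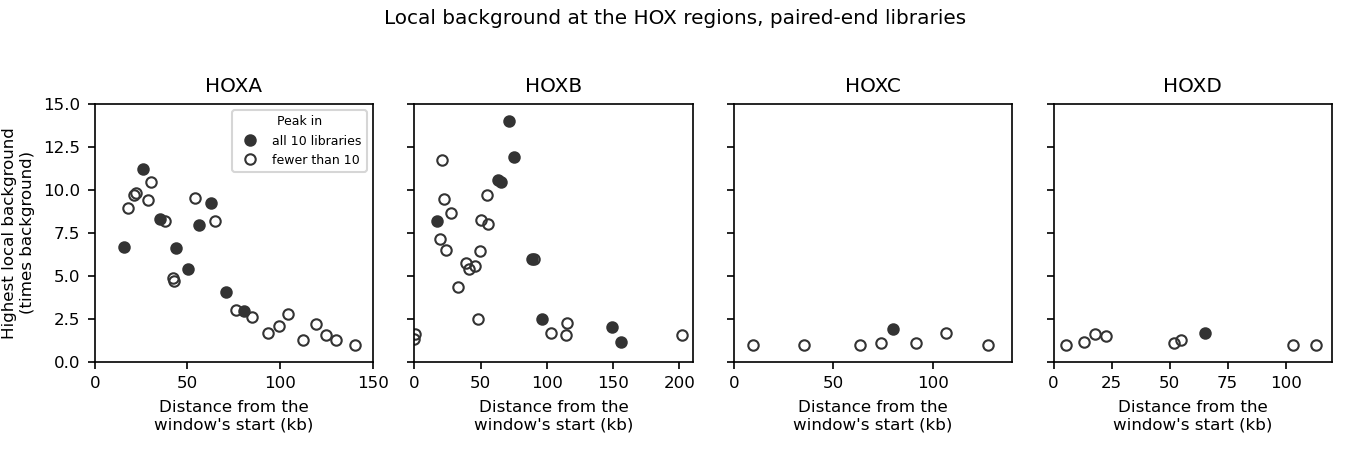
Highest local background over the paired-end libraries holding each HOX region (y axis, times the library's background) against distance from the window's start (x axis, kb), with filled points for regions in all 10 libraries. Values in HOXA reach 11.2 and drop to 2.76 or less beyond 80.6 kb, values in HOXB reach 14.0, and those in HOXC and HOXD stay below 2.

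Sen against Pro asks which HOX regions differ when Ras-induced senescence sets in. Of the 35 regions held by both Pro libraries, 27 were also in all 4 Sen libraries (77.1%), against 86.3% of all such regions. Covered DNA was higher in Sen in HOXA (5.83% and 5.83% in Pro against 6.81% to 11.6% in Sen) and in HOXD (0.442% and 0.644% against 0.651% to 1.35%), with no overlap between groups. In HOXB and HOXC the groups overlapped (3.92% against 4.47%, and 0.325% against 0.363%, group means). The smallest p that 2 against 4 libraries allow is 0.133 in a two-sided exact permutation test, and HOXA and HOXD reached it (adjusted p = 0.333 over 20 window tests). The whole lists covered 29.5 and 32.6 Mb in Pro and 41.5 to 56.9 Mb in Sen. Per Mb of covered DNA, HOX bases numbered 591 and 574 in Pro and 441 to 546 in Sen, lower in every Sen library. Within the first naming style, Sen replicates 1 and 2 had 10.4% of HOXA and 1.29% of HOXD covered. With lists of equal length the order turned in HOXA (5.55% in Sen against 5.69% in Pro) and in HOXD (0.518% against 0.543%), and HOXB was at 2.89% against 3.78% (exact permutation p = 0.133).

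Of the 36 HOX regions held by no Pro library, 4 were opened in Sen (11.1%), where 24.4% of all such regions were. Any other paired-end library could bring a region into this count, and some of the 36 had peaks only in knockdown libraries. The share is therefore no rate of opening. With lists of equal length 1 was opened and 8 were closed. The clearest was at the far end of HOXB, on the side of HOXB13, a 5′ gene of prostate and colon: chr17:46801948-46802511 had 21.4, 23.2, 25.2 and 23.8 times background in Sen replicates 1 to 4 and no listed peak in Pro, a summit at least 2.66-fold higher. The same region was at 31.8 and 27.5 in siFOXF1/2 and was absent from both JUN-family libraries. The other 3 were in HOXA, at chr7:27142052-27142675, chr7:27223562-27224781 and chr7:27137683-27138751. Their lower bounds were all below 1, so a like pileup in Pro could have gone unlisted. The second of these read 18.9, 21.2, 10.1 and 12.9 in Sen.

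Of the 35 HOX regions held by both Pro libraries, 4 were closed in Sen (11.4%), against 3.96% of all such regions. In HOXA this was chr7:27150206-27150774, at 38.5 and 41.5 times background in Pro and unlisted in all 4 Sen libraries, at least 1.79-fold lower. It was at 28.7 in siFOXF1/2 replicate 1. The other 3 sat within 4 kb of each other near the HOXB1 end of HOXB: chr17:46621882-46622548 at 30.4 and 44.5 in Pro, chr17:46618945-46619689 at 22.4 and 29.3, and chr17:46620843-46621557 at 22.8 and 23. Their bounds were 1.53, 1.36 and 0.98. These neighbours were seen together in Pro, and Sen listed none of them. Knockdown libraries with 4-OHT did list some: chr17:46621882-46622548 was at 27.0 in siFOXF1/2 replicate 2. The region chr17:46620843-46621557 was at 27.9 in siFOXF1/2 replicate 1 and at 15.3 in JUN-family replicate 1. In the paired-end libraries chr17:46618945-46619689 was listed in Pro only.

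Among the 27 kept HOX regions, summit pileups scaled on 37328 regions shared by all 10 libraries were lower in every Sen library than in both Pro libraries at 12 (44.4%), against 36.4% of all kept regions. They were higher in every Sen library at 2 (7.41%), against 26.8%. Of the 12 lower regions, 7 were in HOXB, 3 in HOXA and 1 each in HOXC and HOXD. The median log2 difference was -0.32 over the HOX regions and -0.09 over all. The largest drop was in HOXA at chr7:27181640-27183658, with a log2 difference of -0.61. HOXD chr2:177005025-177005888 was next to it with -0.58, from 25.8 and 22.8 times background in Pro to 13.4, 18.8, 14.7 and 14.8 in Sen. HOXB chr17:46671253-46672035 had -0.53, from 84.4 and 93.5 to 65.1, 72.0, 52.7 and 44.8. The 2 higher ones were HOXA chr7:27148253-27148824 (log2 difference 0.44) and HOXB chr17:46748850-46749705 (0.25).

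FOXF1/2 knockdown against Sen asks what these forkhead factors of lung mesenchyme hold open or shut. HOXC and HOXD, the sparse clusters, held more peaks, and in HOXA and HOXB the groups overlapped. HOXD had 8 and 7 peaks in siFOXF1/2 against 4, 3, 3 and 2 in Sen, and HOXC had 7 and 4 against 1, 3, 1 and 1. HOXA had 24 and 20 against 19, 24, 17 and 18, and HOXB had 19 and 18 against 17, 20, 21 and 18. Covered DNA in HOXD was 3.83% and 3.49% with FOXF1/2 siRNA, 3.63 times the Sen mean of 1.01%, and in HOXC it was 2.43% and 1.12%, 4.88 times the Sen mean of 0.363%. Both were above all 4 Sen libraries, at the smallest p that the exact permutation test allows, 0.133 (adjusted p = 0.333). In HOXA (9.42% against 8.85%) and HOXB (4.43% against 4.47%) the groups overlapped, with exact permutation p = 0.8 and 0.933. The siFOXF1/2 mean stayed above the Sen mean in HOXD against Sen replicates 1 and 2 alone, which share the naming style (3.66% against 1.29%; HOXC 1.77% against 0.571%; HOXA turned, 9.42% against 10.4%), and with lists of equal length (2.86% against 1.01%).

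**Figure D3:**
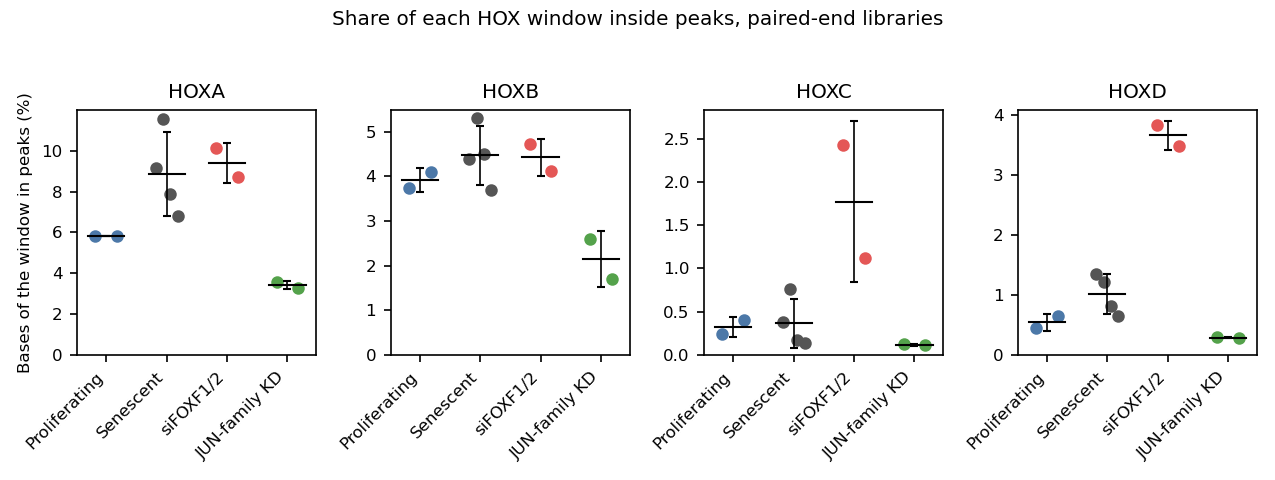
Percent of each window's bases inside peaks (y axis) in the 10 paired-end libraries by group (x axis), with a point per library and the mean ± SD as lines, on a separate scale per window. In HOXC and HOXD both siFOXF1/2 points stand above all others, and in all 4 windows both JUN-family points stand below all 4 Sen points.

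Of the 18 HOX regions held by no Sen library, 6 were opened by FOXF1/2 knockdown (33.3%), against 30.8% of all such regions, so the share itself is near the background. All 6 were in the sparse clusters, 4 of 5 eligible regions in HOXD and 2 of 5 in HOXC, and none of 2 in HOXA or 6 in HOXB. A region entered this count only if some paired-end library listed it, and every eligible HOXC and HOXD region held a siFOXF1/2 peak. Their shares therefore restate where siFOXF1/2 had peaks and give no rate of opening per cluster. The strongest, HOXD chr2:176952961-176953433, was at 15.7 and 14.5 times background, with a bound of 2.60 over Sen. HOXD chr2:176944745-176945516, nearer the HOXD13 end, was at 9.18 and 9.86 (at least 1.77-fold). The other HOXD regions, chr2:177042920-177043776 and chr2:177052711-177053409, towards HOXD3 and HOXD1, were at 6.5 and 11.4 and at 6.5 and 7.27, with bounds of 1.25 each. In HOXC these were chr12:54329222-54329669, at 7.27 and 10.9 (bound 1.40), and chr12:54411514-54411938, at 9.57 and 7.79 (bound 1.43). That last one was also listed in Pro replicate 2, at 7.58. All 6 ranked between the 1.7th and the 34.3rd percentile by q-value within their lists, and with lists of equal length 2 HOX regions were opened.

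Of the 33 HOX regions held by all 4 Sen libraries, 3 were closed by FOXF1/2 knockdown (9.09%), against 8.10% of all such regions. HOXB chr17:46638604-46639111 was at 28.2, 30.0, 29.1 and 26.1 times background in Sen, 39.6 and 39.4 in Pro and 14.0 and 17.9 in the JUN-family knockdown, and was unlisted in siFOXF1/2, at least 1.68-fold lower. The other 2, HOXA chr7:27137683-27138751 and HOXB chr17:46713948-46714229, had bounds of 0.898 and 1.02. Near the last of these lay HOXB chr17:46715234-46715551, a region chosen after its values were seen. It was at 42.5 and 44.1 in siFOXF1/2, at 13.4 and 14.0 in Sen replicates 3 and 4, and unlisted in Sen replicates 1 and 2, both Pro libraries and both JUN-family libraries. The siFOXF1/2 values were thus above both Sen values, in the libraries that listed it.

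Of the 30 HOX regions kept by all Sen and siFOXF1/2 libraries, 11 (36.7%) were higher in both siFOXF1/2 libraries than in every Sen library, against 23.5% of all kept regions, and 2 (6.67%) were lower, against 19.8%. The largest difference was at HOXD chr2:177005025-177005888, with 31.0 and 39.5 times background against 13.4 to 18.8 in Sen and a log2 difference of 0.94 on the scale of shared regions. Of the 11, 6 were in HOXB, among them chr17:46755588-46756197 (log2 difference 0.63) and chr17:46616525-46616974 (0.51, with 70.0 and 74.2 against 38.6 to 48.3). The 3 in HOXA included chr7:27175619-27176317 (0.59) and chr7:27163555-27164538 (0.56, with 66.6 and 67.0 against 34.0 to 43.4). In the opposite direction HOXB chr17:46664945-46665441 was at 26.8 and 34.8 against 46.0 to 54.8 in Sen, a log2 difference of -0.94, and HOXA chr7:27154616-27155430 had -0.37. Scaled on background instead, 15 regions were higher (50%) and 1 was lower (3.33%), against 46.1% and 8.76% of all kept regions.

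**Figure D4:**
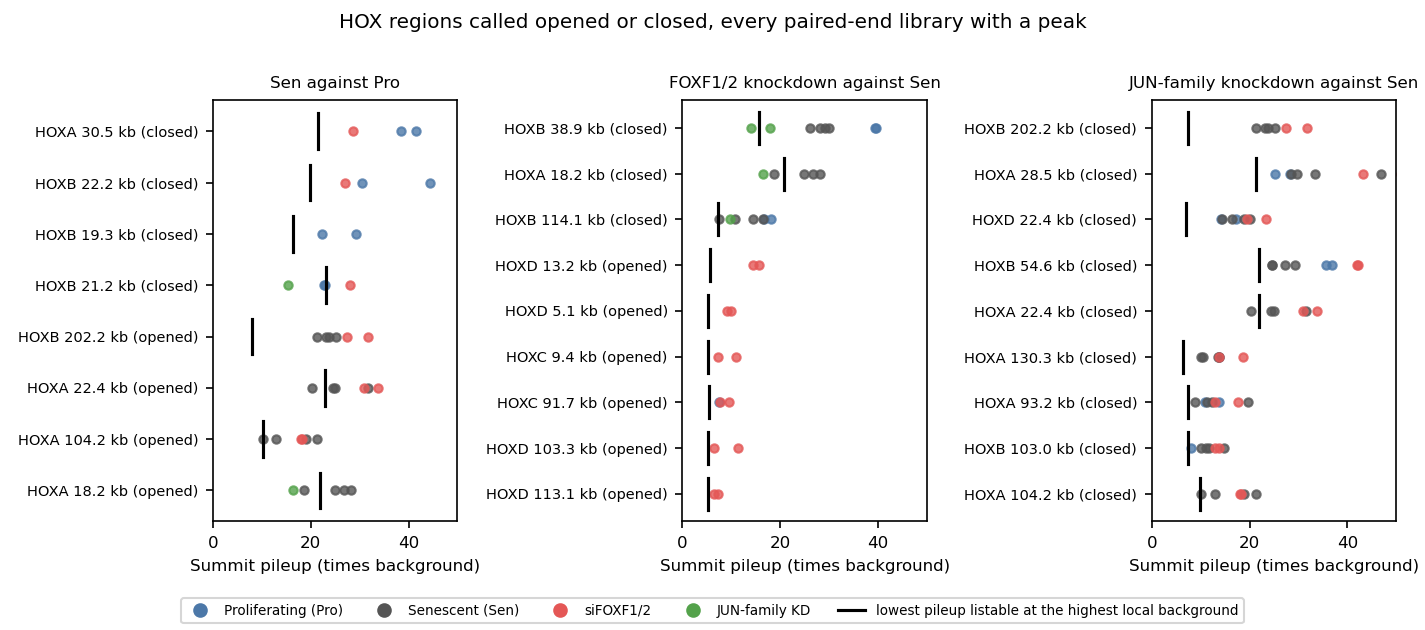
HOX regions called opened or closed in the paired-end comparisons, named by cluster and distance from the window's start (y axis), with the summit pileup in times background (x axis) of every library that listed them. The bar marks the lowest pileup that could be listed at the highest local background seen there, and points far to its right, such as HOXB 202.2 kb and HOXD 13.2 kb, have bounds over 2.

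JUN-family knockdown against Sen asks what AP-1, the factor that shapes much of the enhancer landscape of senescent cells, holds open. All 4 clusters had less covered DNA in both JUN-family libraries than in any Sen library. HOXA had a mean of 8.85% in Sen against 3.56% and 3.30%, HOXB 4.47% against 2.59% and 1.7%, HOXC 0.363% against 0.120% and 0.109%, and HOXD 1.01% against 0.292% and 0.277%. The ratios to the Sen mean were 0.387, 0.480, 0.315 and 0.282. Each is at the smallest p that the exact permutation test allows, 0.133 (adjusted p = 0.333). Within the second naming style, Sen replicates 3 and 4 had means of 7.34% in HOXA and 0.73% in HOXD, still above both JUN-family libraries. The JUN-family lists were also the shortest, with 62734 and 60156 peaks, and with lists of equal length the mean over all windows was 1.64% against 2.39% in Sen. The groups then overlapped over all windows (exact permutation p = 0.267), in HOXB (difference -0.65 percentage points, p = 0.4) and in HOXD (-0.14, p = 0.533). HOX bases per Mb of covered DNA were then 408 against 399 in Sen, where the full lists gave fewer in both JUN-family libraries.

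Of the 33 HOX regions in all 4 Sen libraries, 9 were closed by JUN-family knockdown (27.3%), against 31.6% of all such regions. Of the 18 HOX regions in no Sen library 0 were opened, against 10.7%. These 18 entered the count through a peak in Pro or in a knockdown library. With lists of equal length 2 were closed and 1 was opened. The bounds here are on the background scale and were not computed on the scale of shared regions. Median pileups at regions shared by all paired-end libraries were 21.8 and 26.4 times background in the JUN-family libraries, against 41.3 to 46.8 in Sen. Part of each fold may thus be a shift of the whole library. HOXB chr17:46801948-46802511, the HOXB region opened in Sen, had the highest bound, at least 2.86-fold lower on this background scale. HOXD chr2:176962080-176962759 was at 19.98, 18.8, 16.4 and 14.4 times background in Sen, 17.2 and 14.2 in Pro, and was unlisted after JUN-family knockdown, at least 2.07-fold lower. HOXA chr7:27249881-27250660, near the HOXA13 end, was at 13.8, 13.6, 10.5 and 10.1 in Sen, with a bound of 1.57. HOXA chr7:27148253-27148824, which was higher in Sen than in Pro, was at 33.4, 46.8, 29.8 and 28.4 in Sen, with a bound of 1.33. The remaining 5 were HOXB chr17:46654141-46654968 (bound 1.12), HOXB chr17:46702430-46703473 (1.36), HOXA chr7:27212644-27213684 (1.18), HOXA chr7:27223562-27224781 (1.02) and HOXA chr7:27142052-27142675 (0.927).

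Among 21 kept HOX regions, 3 (14.3%) were lower in both JUN-family libraries than in every Sen library on the scale of shared regions, against 20.9% of all kept regions, and 2 (9.52%) were higher, against 30.1%. The lower ones were HOXA chr7:27163555-27164538 (log2 difference -0.69), HOXB chr17:46664945-46665441 (-0.54) and HOXB chr17:46671253-46672035 (-0.53). The higher ones were the single shared regions of HOXC (0.18) and HOXD (0.72). On the background scale that HOXD region was at 13.0 and 14.9 against 13.4 to 18.8 in Sen, so the groups overlapped, and 19 of the 21 regions were lower and 0 higher, against 83.8% and 1.99% of all kept regions. How many kept regions were called lower or higher therefore depended on the scale in this comparison. The median log2 difference over the kept HOX regions was below 0 on both scales, -0.13 on shared regions and -1.01 on background. Over all kept regions it was 0.07 and -0.79. In HOXA all 9 kept regions were lower on the background scale and 1 of the 9 on the scale of shared regions, with 0 higher on either.

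**Figure D5:**
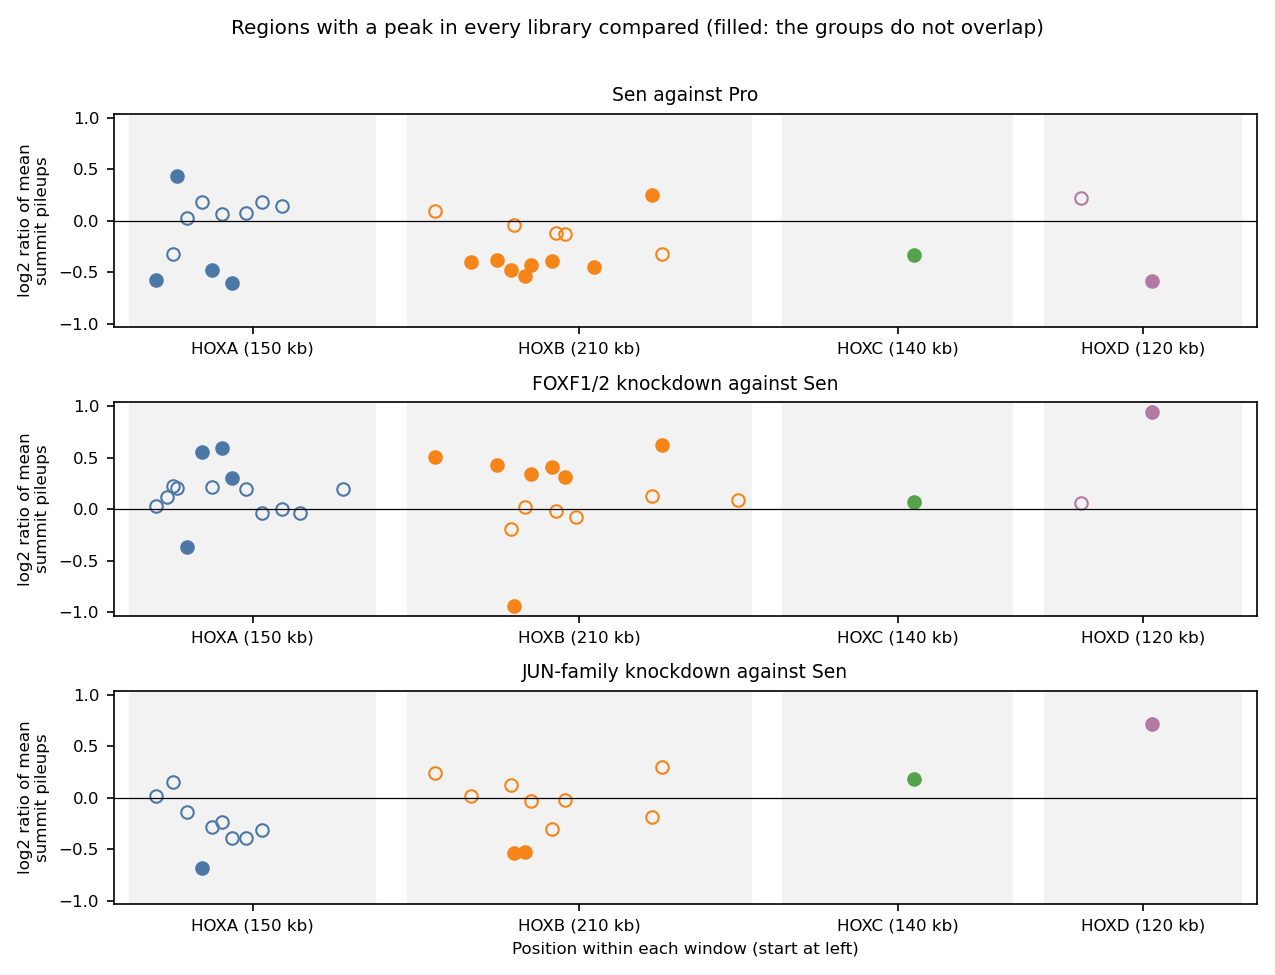
Log2 ratio of mean summit pileups, scaled on regions shared by all 10 libraries (y axis), at HOX regions with a peak in every library compared, by position in the 4 windows (x axis), with filled points where the groups do not overlap. Filled points are mostly below 0 for Sen against Pro and mostly above 0 for FOXF1/2 knockdown, and the HOXD region is at -0.58, 0.94 and 0.72 in the 3 comparisons.

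The single-end libraries listed far fewer HOX peaks, at 10 and 14 in Sen, 24 and 11 in sip300/CBP and 5 and 2 in sip65, and 26 of their 29 regions (89.7%) overlapped a paired-end HOX region, near the 88.7% over all regions. Of the 29, 2 were in all 6 libraries (6.90%), against 12.0% of all single-end regions: HOXB chr17:46616663-46616858 and HOXB chr17:46749202-46749514. Their summits were at 73.7 and 29.5, and at 56.4 and 18.9 times background in Sen. Background coverage was 0.195 to 0.475 fragments, so these multiples rest on few fragments.

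Knockdown of p300/CBP, the acetyltransferases that mark active enhancers, closed 1 of 7 HOX regions held by both single-end Sen libraries, against 17.4% of all such regions, and opened 1 of 12, against 19.2%. The opened one was HOXD chr2:176944762-176944892, at 71.9 and 44.3 times background and unlisted in Sen and sip65, at least 1.46-fold higher. It lies inside the HOXD region opened by FOXF1/2 knockdown in the paired-end libraries. The closed one was HOXA chr7:27190556-27190693, at 52.0 and 21.0 in Sen, with a bound of 0.772. HOXB chr17:46715299-46715495, inside the region that was highest in siFOXF1/2, was at 98.4 and 47.7 with p300/CBP siRNA against 47.7 and 25.2 in Sen, and the nearest values of the groups were both 47.7. The covered DNA in HOXD was 0.216% and 0.150% against 0% and 0.0825%, at the smallest p that 2 against 2 libraries allow, 0.333 by the exact permutation test. In HOXA and HOXB the groups overlapped, and without sip300/CBP replicate 1 the value over all windows was 0.227% against 0.249% in Sen.

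Knockdown of p65, which carries the NF-kB response of senescent cells, was followed by 0 listed peaks in HOXA, HOXC and HOXD and 5 and 2 in HOXB. The single-end Sen libraries had 5 and 5 in HOXA, 0 in HOXC, 0 and 1 in HOXD and 5 and 8 in HOXB. It closed 4 of 7 HOX regions (57.1%), against 29.6% of all such regions, and opened 0 of 12, against 0.899%. The closed ones were HOXB chr17:46715299-46715495 and HOXA chr7:27154862-27155092, chr7:27163859-27164036 and chr7:27190556-27190693. Their bounds were between 0.574 and 0.615, so a like pileup could have gone unlisted. HOXA covered DNA was 0.399% and 0.417% in Sen against 0% in both sip65 libraries, at p = 0.333, the smallest that the exact permutation test allows. The sip65 lists were the 2 shortest of the layout, with 44011 and 17880 peaks against 54588 and 67628 in Sen. The part of list length in the result was not tested beyond lists of equal length, where 0 regions were closed.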

How the data were processed

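ATAC-seq libraries were called separately, 1 deposited peak list per library, and the submitters' processing notes name MACS2 2.1.1, Bowtie2 2.3.4.1, deepTools 3.1.1, SAMtools 1.9 and build hg19, without roles. Caller settings, duplicate handling and any read shifting were not given in the sources used. Per the file layout, each deposited peak has the authors' fold ratio over local background, −log10 p and −log10 q values, and a score, which was not used. The lowest deposited −log10 q was 4.00 to 4.10 in every list.

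Autosomal and X peaks were merged per layout where they overlapped by at least 1 bp. Summit pileups and local backgrounds were solved from fold = (pileup + 1) / (background + 1) and the Poisson p-value, which gave a whole pileup for 100% of peaks with −log10 p under 300 (tolerance 0.002, widened in proportion above 10). Background coverage was the 1st percentile of the local background. The recovery and the calls were tested on simulated data. Recovery, fold bounds and both scales were chosen after seeing the data. Covered percent was compared by two-sided exact permutation tests over libraries, with Benjamini-Hochberg adjustment over 20 window tests. Opened and closed calls have no test.

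The members, gene lists and rules were chosen with earlier results of these data known. Regions named are, per cluster, the 3 strongest in Sen and the widest, up to 4 opened and 4 closed per comparison by lowest −log10 q, and others named beside a count. Promoter letters are RefSeq's (GRCh38.p14). Python 3.11.15, numpy 2.4.6, scipy 1.17.1, pandas 2.3.3 and matplotlib 3.10.9 were used. Alternatives were lists of equal length, a minimum −log10 q of 5, 50% overlap, 500 bp summit windows, 1 kb tiles, a replicate block, subsets of Sen and leaving out each library.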

Additional observations from a re-analysis of the deposited data

Results flagged for a closer look

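HOXC held 3 peaks in Sen replicate 2 and 1 peak in each of the other 3 Sen libraries. It stood out because this gap spans the whole range of the group, and 10 such groups of 4 Sen values were checked. Chance alone picks out about 1 group in 20. Without Sen replicate 2 the HOXC covered percent differed by -0.0963 percentage points (Sen minus Pro). Counts this small have few possible values. No cause was tested.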

How the results depend on the processing

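All values are differences between group means (second group minus reference) in percent of bases covered, in HOX bases per Mb of covered DNA (share), or numbers of HOX regions. No p was below 0.133 in any setting, and the designs cannot reach 0.05. Of 272 values that answer a comparison, 225 kept their direction (differences) or stayed within 1.5 times (numbers of regions). Of 208 differences for single windows 190 did not reverse, with no limit on their size. Differences of 0, as in HOXC for p65 knockdown, have no direction and count among these 190.

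Lists of equal length changed most. Sen against Pro turned to -0.340 over all windows, -0.148 in HOXA, -0.896 in HOXB and -0.0246 in HOXD, with 8 regions closed and 1 opened. FOXF1/2 knockdown then opened 2. JUN-family knockdown had a share difference of 8.36, 2 closed and 1 opened. For p300/CBP 0 were closed and 2 opened, and p65 knockdown had 0.0194 over all windows, 0.0574 in HOXB, a share difference of 42.5 and 0 closed. Fewer peaks per list enter here by construction. Summit windows of 500 bp turned the JUN-family share to 6.55. A −log10 q of at least 5 turned HOXC in Sen against Pro to -0.00482. With 50% overlap, Sen closed 2 regions and FOXF1/2 knockdown closed 1. With 1 kb tiles FOXF1/2 knockdown closed 5 and opened 10.

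With Sen replicates 1 and 2 only, Sen opened 7 regions, JUN-family knockdown opened 1, and HOXA after FOXF1/2 knockdown was -0.943. With Sen replicates 3 and 4 only, HOXC in Sen against Pro was -0.171 and HOXB after FOXF1/2 knockdown 0.325. Of the HOX regions in both Sen replicates 1 and 2, 3 of 37 (8.11%, against 6.16% of all regions) were in neither Sen replicate 3 nor 4, with no knockdown involved, and in reverse 3 of 36 (8.33%, against 4.59%).

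Leaving out a library gave 0.660 to 1.31 over all windows for Sen against Pro, 0.502 to 1.40 for FOXF1/2, -2.59 to -1.94 for JUN-family, -0.0213 to 0.251 for p300/CBP and -0.205 to -0.125 for p65. HOXC in Sen against Pro ranged from -0.0963 to 0.12, and turned to -0.045 without Pro replicate 1 and -0.0963 without Sen replicate 2. For FOXF1/2, HOXB ranged from -0.344 to 0.250 (0.228 without Sen replicate 2, 0.250 without siFOXF1/2 replicate 2), and HOXA to -0.115 without Sen replicate 4 and -0.130 without siFOXF1/2 replicate 1. For p300/CBP, values reached 0.522 in HOXA and 0.144 in HOXB without sip300/CBP replicate 2, HOXB turned to -0.00548 without Sen replicate 1, and without sip300/CBP replicate 1 the values were -0.0213 over all windows, -0.127 in HOXA and -0.0343 in HOXB. Opened regions numbered 4 to 5 for Sen against Pro, 6 to 13 for FOXF1/2 (13 without siFOXF1/2 replicate 2), 0 to 2 for JUN-family, 1 to 10 for p300/CBP (10 without sip300/CBP replicate 2) and 0 to 1 for p65. Closed regions numbered 4 to 6, 3 to 3, 9 to 11, 1 to 2 and 4 to 11 (11 without Sen replicate 1) in the same order.

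At kept regions, the background scale gave 1 higher for Sen against Pro, 1 lower for FOXF1/2, and 19 lower and 0 higher for JUN-family. Leaving out a library gave 2 to 5 higher for Sen against Pro, and 3 to 7 lower and 3 to 6 higher for JUN-family. With Sen replicates 1 and 2 only, 5 were higher for Sen against Pro, 4 lower for FOXF1/2, and 11 lower and 4 higher for JUN-family. With Sen replicates 3 and 4 only, 20 were higher for FOXF1/2 and 6 for JUN-family. The cause was not tested for any of these.

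The labels do not say that equal numbers pair libraries, and only 2 pairs exist. With a replicate block the values over all windows were 1.61, 0.360, -2.89, 0.115 and -0.165 for Sen against Pro, FOXF1/2, JUN-family, p300/CBP and p65, and the HOXA value for FOXF1/2 turned to -0.943. The share differences under the block were -89.3, 36.2, -90.7, 85.9 and -48.7.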
